A study of Mus musculus with 2 samples.

Results

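Among 29190 droplet barcodes kept from the aortas of ApoE-/- mice, 58 carried transcripts of Chil1 and Acan together with little or no Col2a1, and these 58 barcodes are described here. A barcode was kept at 1500 or more unique molecular identifiers (UMIs, each 1 counted transcript molecule), at least 700 detected genes and no more than 20% of UMIs from mitochondrial genes. A member then needed 2 or more Chil1 UMIs, 1 or more Acan UMI, Col2a1 below 20 per 10000 UMIs, and no UMI of Cd68 (macrophage) or Csf3r (neutrophil). The members made up 0.199% of kept barcodes (95% interval 0.151 to 0.257), with 34 of 11833 in library 1 (0.287%) and 24 of 17357 in library 2 (0.138%). They were compared with the 1455 kept barcodes (143 and 1312) in which Col2a1 reached 50 or more per 10000, called Col2a1-high.

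The study profiled aortic cells from mice aged 20 weeks without apolipoprotein E, a strain that develops atherosclerotic plaques, in 2 samples, 1 labelled HFD and 1 labelled MSC_ITGB3. Its stated purpose was to describe the heterogeneity of aortic cells in HFD-fed mice with or without MSC_ITGB3, so both samples share the ApoE deletion and, per that text, the HFD. Libraries were made with 10x Chromium 3' v3 chemistry, which counts transcript 3' ends. The counts carry 2 barcode suffixes that no label ties to a sample, so they are called library 1 and library 2, neither is given a group, and no difference between them is one between treatments.

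Chil1 encodes a secreted chitin-binding glycoprotein without chitinase activity, known as YKL-40 in humans, which chondrocytes, synovial cells, macrophages and neutrophils release during inflammation. Acan encodes aggrecan, the large proteoglycan of cartilage that also accumulates in vessel walls, and Col2a1 encodes the fibrillar collagen that defines hyaline cartilage. In chondrocytes exposed to inflammatory cytokines, collagen genes are known to be turned down while metalloproteinases, nitric oxide synthase 2 and secreted defence proteins such as lipocalin-2 are turned up.

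There was 1 library per sample, so no test between groups was possible and no p-value was computed. Levels are counts summed over the barcodes of a set and given as counts per 1000000 UMIs of that set (CPM), or per 10000 UMIs of 1 barcode. Paired values are for library 1 and then library 2. Bracketed 95% intervals are exact (Poisson for levels and ratios, Clopper-Pearson for shares) and reflect counting error alone, without any spread among animals. A gene was called higher or lower when the levels differed 2-fold or more in the same direction in each library, with at least 50 CPM in the higher set. A gene without any count was set at 3 counts, and a ratio against it is a lower bound. Its interval was computed from those 3 counts and is therefore not exact.

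The promoter windows of 4 genes are shown first. Chil1 chose the members, the metallothionein Mt2 is among the genes by which they were labelled, and Mt1 is its neighbour. Cxcl1 is the cytokine-response gene that was higher than in Col2a1-high barcodes in both libraries. Each window runs from 250 bases before to 30 bases after the annotated start (RefSeq, GRCm38.p6, plus strand, 5' to 3'). In Mt1 (chr8:94178839-94179118) and Mt2 (chr8:94172368-94172647) the capitals mark the core of the metal response element, TGCGCNC or TGCACNC on either strand. In Chil1 (chr1:134181906-134182185) and Cxcl1 (chr5:90890995-90891274) the capitals mark the NF-kappaB consensus on either strand.
Mt1: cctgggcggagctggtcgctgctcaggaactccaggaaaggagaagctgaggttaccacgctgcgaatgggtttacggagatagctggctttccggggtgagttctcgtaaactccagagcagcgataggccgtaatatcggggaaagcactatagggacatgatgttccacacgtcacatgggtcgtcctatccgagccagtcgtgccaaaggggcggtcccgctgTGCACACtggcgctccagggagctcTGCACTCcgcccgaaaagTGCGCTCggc
Mt2: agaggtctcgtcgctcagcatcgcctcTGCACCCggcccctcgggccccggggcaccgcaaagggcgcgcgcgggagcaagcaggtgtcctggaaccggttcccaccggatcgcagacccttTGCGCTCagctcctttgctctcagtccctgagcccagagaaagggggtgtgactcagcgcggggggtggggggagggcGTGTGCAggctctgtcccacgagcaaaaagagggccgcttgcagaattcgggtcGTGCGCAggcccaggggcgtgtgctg
Chil1: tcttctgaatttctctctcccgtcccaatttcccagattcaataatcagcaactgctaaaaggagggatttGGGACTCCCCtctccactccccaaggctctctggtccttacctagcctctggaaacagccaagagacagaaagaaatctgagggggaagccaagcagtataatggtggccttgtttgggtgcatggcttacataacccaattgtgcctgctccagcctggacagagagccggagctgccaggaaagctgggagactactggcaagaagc
Cxcl1: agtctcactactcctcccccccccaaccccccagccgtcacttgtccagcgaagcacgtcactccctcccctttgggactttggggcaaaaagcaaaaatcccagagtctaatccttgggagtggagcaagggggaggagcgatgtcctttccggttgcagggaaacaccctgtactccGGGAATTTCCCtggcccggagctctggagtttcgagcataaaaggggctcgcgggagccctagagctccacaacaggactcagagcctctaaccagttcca
The Mt1 window held 3 metal response cores and the Mt2 window 4, where 24.1% of all 32851 windows of this length held at least 1 and 0.405% held 4 or more. The Chil1 window held 1 NF-kappaB match and the Cxcl1 window 2 that overlap each other, where 4.22% of windows held at least 1. No NF-kappaB match was found in the windows of Lcn2, Mmp3 and Slpi, and no window for Nos2 was used. A match describes the letters only.

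Chil1 (chr1:134182176-134190181, GRCm38, plus strand) was unevenly spread over the members that it chose. In library 1 it ranged from 0.447 to 144 per 10000 with a median of 4.54, and in library 2 from 0.52 to 38.9 with a median of 6.14. In library 1, 1 barcode with 65688 UMIs held 948 of the 1464 Chil1 UMIs (64.8%), and without it the summed level was 492.6 CPM. The same barcode had the highest Col2a1 of all members, 128 UMIs or 19.5 per 10000, just under the rule's limit. Of the library 1 members' UMIs it held 64 of 68 for Col11a1, 27 of 30 for Col9a1 and 173 of 201 for Penk. It also had 95 UMIs of the smooth muscle gene Myh11. At the other end, 15 members had exactly 2 Chil1 UMIs and 16 had 10 or more. Just outside the rule, 70 barcodes met every other condition with a single Chil1 UMI. Acan (chr7:79053483-79115099, plus strand) was at 571.3 and 484.7 CPM, and 15 members had a single Acan UMI. Col2a1 (chr15:97975602-98004695, minus strand) was absent from 23 members and reached 19.5 per 10000 at most in the others. The 13 barcodes that met the other conditions with Col2a1 between 20 and 50 per 10000 started at 21.2 and had a median of 28.3.

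Free RNA was judged from barcodes of 10 to 100 UMIs, too few for a cell, in which Chil1 stood at 12.81 and 12.33 CPM. At that level a member would carry 0.0196 to 0.841 Chil1 UMIs. The rule's minimum of 2 Chil1 UMIs sets each member above this, so the Chil1 counts give no separate evidence on free RNA. Acan was at 70.22 and 258.3 CPM in the same low-count barcodes, and only 15 of the 24 members of library 2 exceeded the Acan count that this level would give, against 34 of 34 in library 1. As a description of the rule's own genes, among barcodes of 8000 or more UMIs, called deep here, with low Col2a1 and no Cd68 or Csf3r UMI, 40 of 1012 with Acan (3.95%, 2.84 to 5.34; median 19135.5 UMIs) had 2 or more Chil1 UMIs. The share was 16 of 3768 without Acan (0.425%, 0.243 to 0.689; median 13231 UMIs) and 3 of 851 in barcodes with UMIs of the endothelial genes Pecam1 and Cdh5 (0.353%, 0.0728 to 1.03; median 16705 UMIs). The first of these sets is the deep members themselves, and the sets differ in depth, so nothing is read from these shares.

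**Figure D1:**
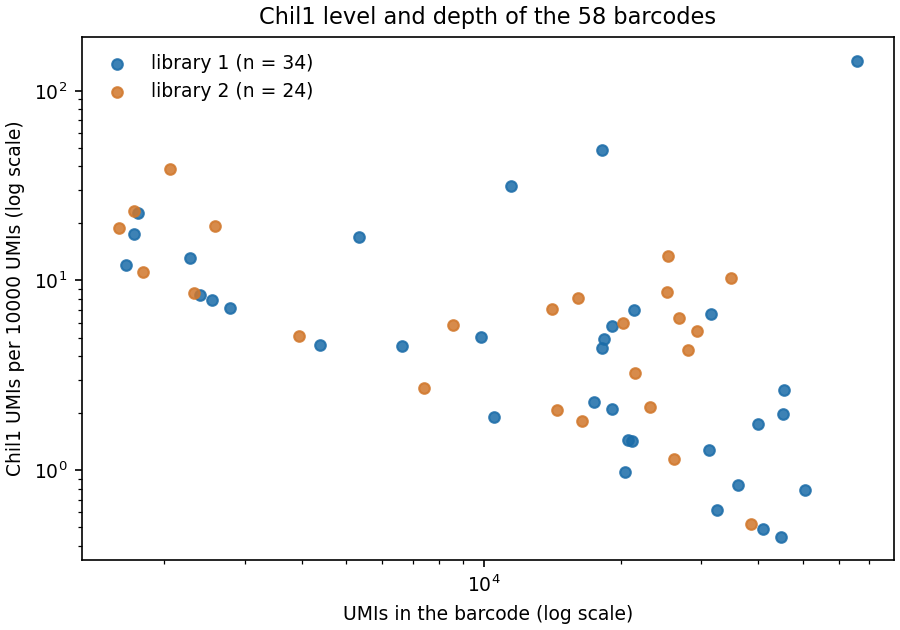
Chil1 per 10000 UMIs (log axis) against total UMIs (log axis) for each of the 58 members, with the 2 libraries in different colours. Most members lie above 8000 UMIs, and the barcode of 65688 UMIs stands highest at 144 per 10000.

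The members were deeper than the barcodes they were compared with. Their median was 18280.5 UMIs (range 1588 to 65688) and 40 of them were deep (24 and 16), while Col2a1-high barcodes had a median of 2501 UMIs and 121 were deep. A minimum number of Chil1 UMIs favours deep barcodes, so the main values were also computed among deep barcodes only. No barcode sequence was shared between the 2 libraries among the members, against 84 among all kept barcodes.

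Markers of blood and lining cells were scarce in the members. Neutrophil markers summed to 4.16 and 0 CPM, with S100a8 at 0 in all 58, and macrophage markers to 23.57 and 30.62 CPM, with Adgre1, Mrc1 and Fcgr1 at 0. Csf3r and Cd68 are among these markers and were required to be absent, so the rule itself favours low sums for both cell types. Endothelial markers summed to 81.81 and 17.86 CPM with Pecam1 UMIs in 16 members and Cdh5 UMIs in 4, and T cell markers to 2.773 and 10.21 CPM, while adipocyte and erythroid markers gave no UMI. Markers of modulated smooth muscle (7 genes, Lum, Dcn and Spp1 among them) summed to 54510 and 28040 CPM. Col2a1-high barcodes had 29890 and 24210 CPM of them. Of the 7 genes, 6 and 6 were at 20 CPM or more in the members, and Igfbp2 was at 0 in library 2. Fibroblast markers (8 genes, Lum and Dcn again among them) summed to 33800 and 24590 CPM, with 7 and 6 at 20 CPM or more. Col2a1-high barcodes had 28460 and 21430 CPM of them. The fibroblast marker Pi16 was at 20.3 and 5.427 CPM in deep members. Lum, Dcn, Col1a1 and Fn1, which encode lumican, decorin, a chain of type I collagen and fibronectin, each had UMIs in 58 of 58. Chondrocyte markers (13 genes, Acan and Col2a1 among them) summed to 2285 and 2436 CPM, with 12 and 8 genes at 20 CPM or more and Col11a1 and Matn3 at 0 in library 2. Contractile smooth muscle markers were uneven, with a median of 6.02 and 3.07 per 10000 and a highest member at 245 and 89.3. Acta2 was at 1276 and 293.4 CPM, below its level of 4886 and 7234 CPM in low-count barcodes.

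The label genes that the rule did not use, Clu, Nos2 and Mt2, stood higher over low-count barcodes in library 1 than in library 2. Clu (chr14:65968483-65981547, plus strand), the extracellular chaperone clusterin, was at 4873 and 1100 CPM, where low-count barcodes had 1532 and 1348. Nos2 (chr11:78920787-78960254, plus strand), the inducible nitric oxide synthase, was at 281.5 CPM from 203 UMIs in 18 members of library 1 and at 5.103 CPM from 2 UMIs in library 2. In Col2a1-high barcodes Nos2 was at 174.8 and 15.89 CPM. The ratios of 1.61 and 0.321 went opposite ways, and Nos2 was not called. Mt2 (chr8:94172664-94173568, plus strand), a metal-binding protein, was at 1836 and 1306 CPM, and 1 barcode held 401 of the 512 UMIs in library 2, without which the level was 295.3. Low-count barcodes had 1102 and 859.9 CPM of Mt2. All 3 genes exceeded their low-count share in 8 members of library 1 and in none of library 2, and none of the 3 did in 2 of 34 and 15 of 24. Clu reached 50 per 10000 in 16 members, which were all in library 1. The 7 members with 5 or more Nos2 UMIs were also in library 1 and each had at least 36000 UMIs, as 9 members had in all.

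**Figure D2:**
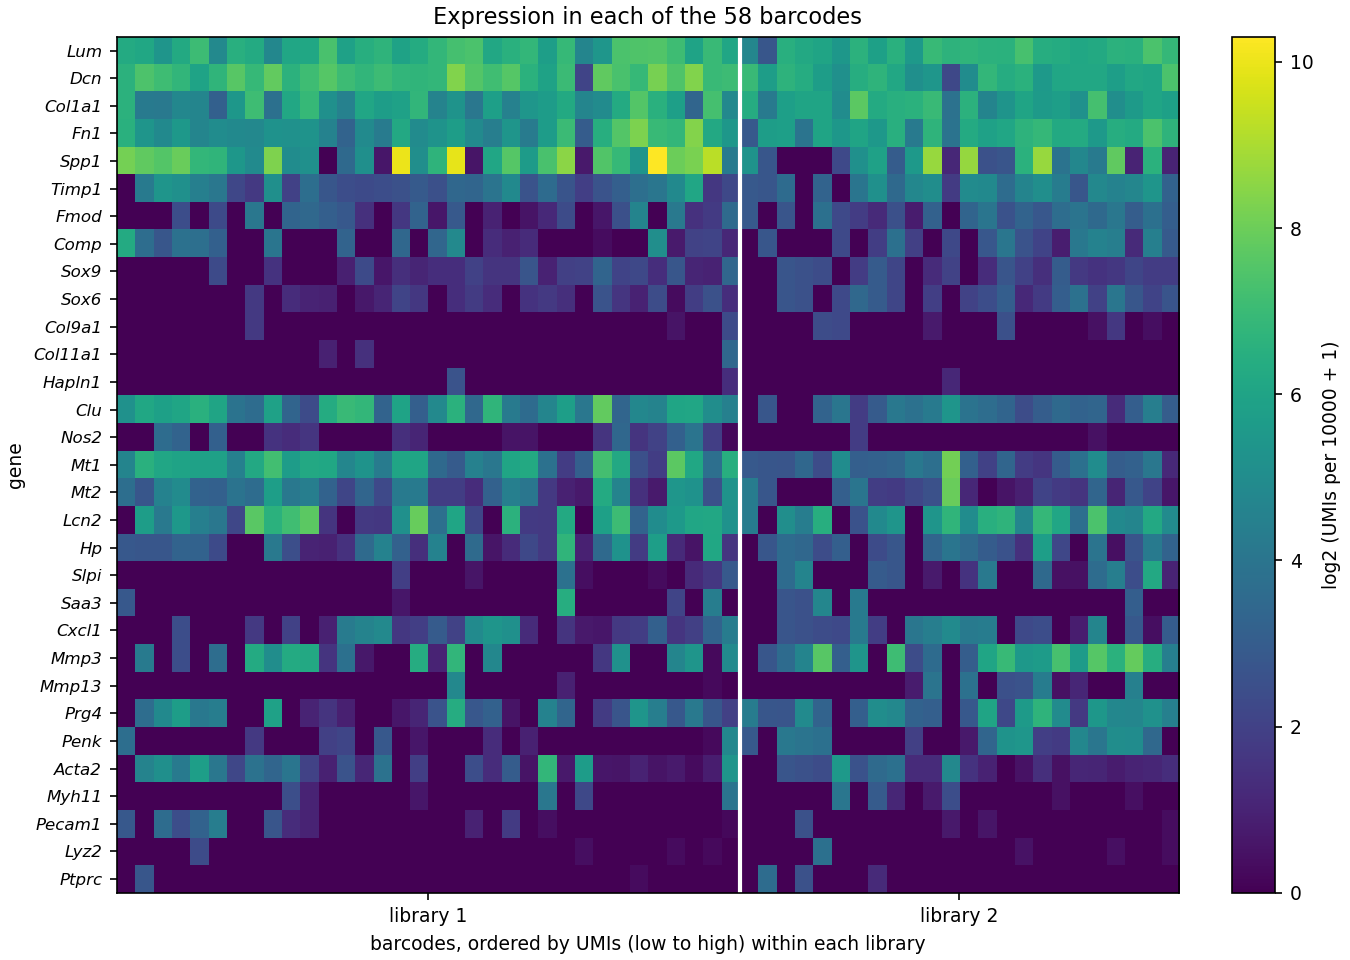
Levels of 31 genes (rows) in each of the 58 members (columns, ordered by total UMIs within each library), coloured by log2(UMIs per 10000 + 1). Lum, Dcn, Col1a1 and Fn1 are filled across both libraries, Clu and Mt2 are stronger in library 1, and Mmp3, Prg4 and Penk are filled more often in library 2.

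Several secreted defence and acute-phase genes were higher in the members than in Col2a1-high barcodes. Of 3601 genes tested, 76 were higher in the members (2.11%) and 114 were lower (3.17%), and the median log2 ratio of all tested genes was 0.07. Of the 6 acute-phase and antimicrobial genes tested, 3 (Lcn2, Slpi and Saa3) were higher and none was lower, with a list median of 2.48 on the log2 scale. Lcn2 (chr2:32384633-32388252, minus strand) encodes lipocalin-2, which binds bacterial iron carriers. It had UMIs in 30 of 34 and 21 of 24 members, with medians of 33.3 and 31.0 and highest values of 240 and 165 per 10000. Its summed level was 5029 CPM in the members and 1823 in Col2a1-high barcodes of library 1, a ratio of 2.76 (2.61 to 2.91), and 5853 against 412.5 CPM in library 2, a ratio of 14.2 (13.4 to 15.0). These levels lay well above those in low-count barcodes (352.9 and 515.9 CPM) and in neutrophil barcodes chosen by Csf3r and S100a8 (579 and 526.9 CPM). Members without or with little Lcn2 existed in both libraries, and 36 of 58 were at 20 or more per 10000.

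Slpi, which encodes a secreted inhibitor of leukocyte proteases, was at 151.1 against 33.0 CPM in library 1 (4.58, 3.13 to 6.84) and at 1125 against 50.42 CPM in library 2 (22.3, 19.3 to 25.8). Unlike Lcn2, Slpi did not lie well above neutrophil barcodes, which had 975.5 and 1120 CPM of it. Only 23 members (8 and 15) had a Slpi UMI, and 1 barcode held 57.4% of those in library 2. Without it Slpi was at 526.3 CPM there, still past the 2-fold limit. Saa3, an acute-phase apolipoprotein, was at 528.3 against 42.81 and at 94.4 against 33.61 CPM, but 10 members held all of its UMIs and 1 barcode held 69.6% of those in library 1. Without the highest member of each library, Saa3 was at 168.2 and 41.37 CPM and no longer past the 2-fold limit. Low-count barcodes had 208.9 and 161.6 CPM of Saa3, so the members of library 2 lay below that level. The members of library 1 lay below it without their highest barcode. Hp, which encodes haptoglobin, was at 1844 against 967.7 and 1013 against 330.3 CPM, and with a ratio of 1.91 in library 1 it was not called.

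The protease gene Mmp3 ranked first among the genes called higher, with the libraries summed and 5 CPM added to both sides. Without that addition, Mme and Kcnj15 had higher ratios than Mmp3 in each library. Mmp3 (chr9:7445822-7455975, plus strand), the secreted metalloproteinase stromelysin-1, had UMIs in 20 of 34 and 21 of 24 members, with medians of 1.47 and 42.1 per 10000. It was at 1740 against 836.6 CPM in library 1 (2.08, 1.91 to 2.27) and at 8172 against 254.6 CPM in library 2 (32.1, 30.3 to 34.1). The library 1 ratio lay just past the limit and was 1.57 among deep barcodes, so there the gene was not called. Of 14 proteases and inhibitors tested, 2 were higher (Mmp3 and the aggrecanase Adamts5) and none was lower. Of 20 NF-kappaB and cytokine-response genes, 1 was higher, the neutrophil-attracting chemokine Cxcl1 at 866.7 against 256.9 CPM (3.37) and 801.1 against 186.9 CPM (4.29), and none was lower. Cxcl1 was at 766.2 and 706.7 CPM in low-count barcodes, close to its level in the members, and the part of free RNA in its difference was not tested. Ereg, a ligand of the epidermal growth factor receptor, was at 270.4 against 90.09 and 288.3 against 28.42 CPM.

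Stress and complement genes differed less. Of 5 metallothionein and metal-transport genes tested, 3 were higher: Mt1 (2.08 and 2.30-fold), Mt2 (2.22 and 5.57-fold) and Fth1, the ferritin heavy chain (2.22 and 3.68-fold). Mt1 was at 5513 and 2069 CPM in members and at 3690 and 2613 CPM in low-count barcodes, so in library 2 it was below its low-count level. In library 2, 1 barcode held 55.2% of Mt1 UMIs, and without it Mt1 was at 965.8 against 898.6 CPM. Mt2 without its highest barcode was at 295.3 against 234.4 CPM, so both calls rested on 1 barcode, the same for both genes. Of 12 oxidative-stress genes, 2 were higher, haem oxygenase Hmox1 (2.56 and 2.28-fold) and extracellular superoxide dismutase Sod3 (2.81 and 2.58-fold). Of 9 complement genes with clusterin, 3 were higher: Clu (3.71 and 2.26-fold), C4b and Cfb. In library 2, 1 barcode held 92.7% of C4b UMIs and 1 held 77.3% of Cfb UMIs. Without these C4b was at 15.96 CPM and Cfb at 26.61 CPM, below the 73.95 and 42.78 CPM of Col2a1-high barcodes, so that both calls were lost. None of 12 hypoxia and glycolysis genes and none of 5 interferon genes was called.

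The other genes with the highest ratios were of varied kinds. Mme, the surface peptidase neprilysin, was at 61.01 against 5.352 CPM and 155.6 against 3.514 CPM (11.4 and 44.3-fold). Kcnj15, an inward-rectifier potassium channel, was 6.66 and 34.2-fold higher, and the chemokine Cxcl14 was 7.21 and 16.7-fold higher. Fndc1, a secreted fibronectin-domain protein, was 5.27 and 11.2-fold higher. Fzd1, a Wnt receptor, was 2.76 and 8.56-fold higher, and Fst, the activin-binding protein follistatin, 3.25 and 8.56-fold. F5, coagulation factor V, was 2.33 and 12.2-fold higher, but in library 1 on 18 against 12 UMIs (1.06 to 5.31). Without its highest member in each library F5 was no longer past the 2-fold limit. The small proteoglycan Lum (chr10:97565128-97572703, plus strand) was at 10330 against 3712 CPM (2.78, 2.68 to 2.89) and 10010 against 3339 CPM (3.00, 2.90 to 3.10), and its lowest member still had 24.6 and 5.83 per 10000. Lum was among the most even of these differences between the libraries, since its ratio was similar in the 2. Low-count barcodes had 2426 and 3256 CPM of Lum, and the lowest member of library 2 lay below that level. Its presence in each member is therefore not read as evenness.

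**Figure D3:**
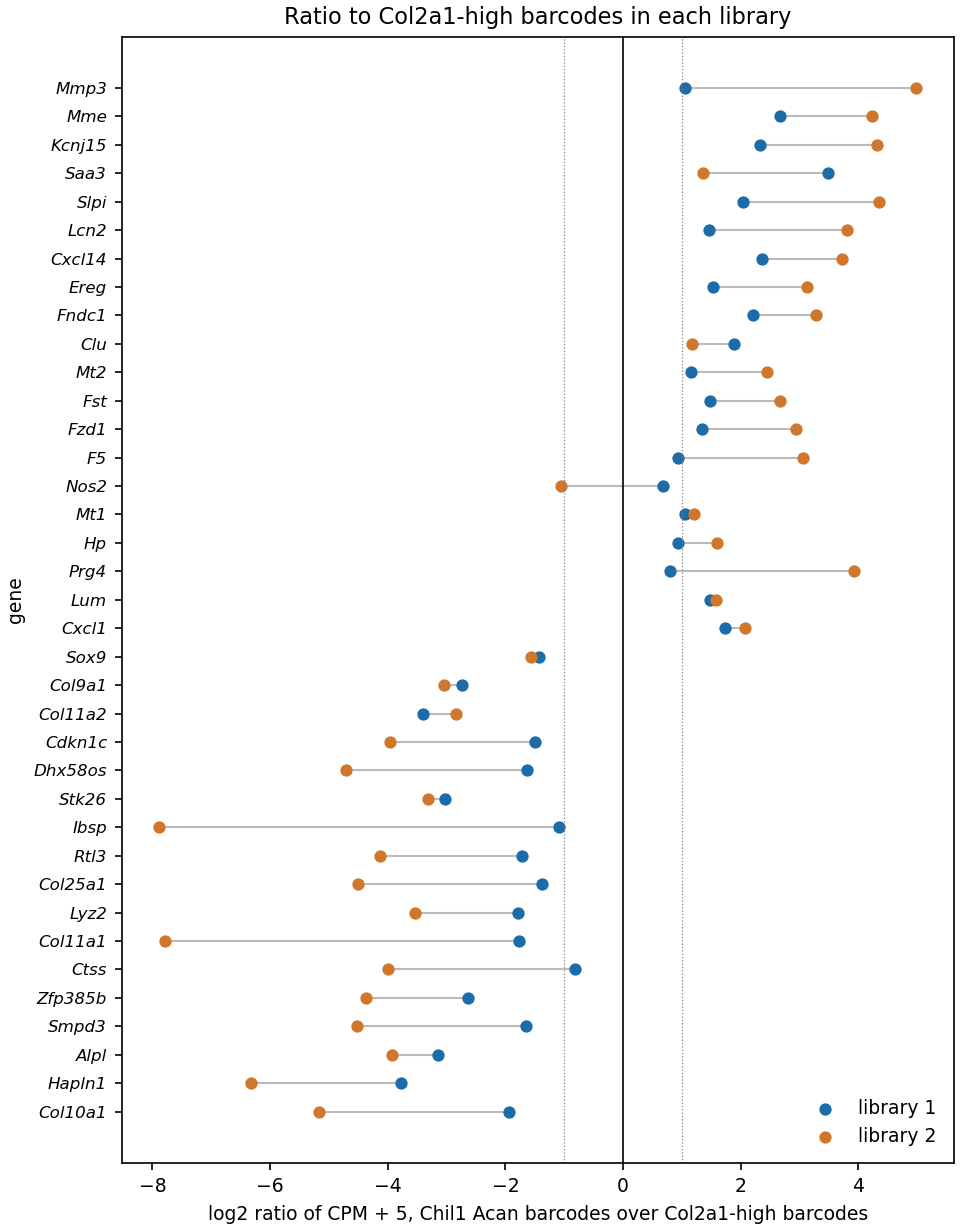
Log2 ratio of CPM (with 5 CPM added to both sides) of members over Col2a1-high barcodes for the named genes, 1 point per library. Mmp3, Slpi and Lcn2 lie further to the right in library 2 than in library 1, and cartilage genes such as Hapln1 and Col11a1 lie far to the left.

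Cartilage matrix genes were lower in the members beyond Col2a1 itself. Of 10 fibrillar and associated cartilage collagens tested, 6 were lower (Col9a1, Col9a2, Col9a3, Col11a1, Col11a2 and Col27a1) and none was higher, with a list median of -2.09. The sets were chosen by Col2a1, with which these genes are co-expressed in cartilage. Col11a1, a partner chain of type II collagen, was at 94.29 against 331.8 CPM in library 1, where the member with most Chil1 held 94.1% of its UMIs. In library 2 Col11a1 was at 0 against 1096 CPM, at least 143-fold lower. Col9a1, a chain on the surface of cartilage fibrils, was 7.40 and 8.92-fold lower. Hapln1 (chr13:89539796-89611652, plus strand), the link protein that ties aggrecan to hyaluronan, was at 27.73 against 441.5 CPM (15.9-fold lower, 10.2 to 26.3). In library 2 it was at 5.103 CPM from 2 UMIs against 807.5 CPM (158-fold lower, 43.8 to 1307). UMIs of Hapln1 were found in 3 of 58 members, although every member had Acan by the rule.

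Of 14 cartilage proteoglycans and matrix proteins tested, 5 were lower (Hapln1, Chad, Snorc, Cnmd and Cytl1) and 2 were higher (Lum and Matn4). Cytl1, a secreted protein of chondrocytes, was at 1179 against 3934 and 201.6 against 583.4 CPM. The glycoproteins Comp and Fmod were not called, at 460.4 against 826.8 and 903.2 against 863.9 CPM for Comp. Of 9 transcription factors, Sox9 and Nfatc2 were lower and none was higher. Sox9, the regulator of chondrocyte identity, was at 325.9 against 890.2 CPM (2.73-fold lower, 2.37 to 3.16) and 278.1 against 832.3 CPM (2.99-fold lower, 2.48 to 3.65), and 43 of 58 members still had a UMI of it. Sox6 was not called, at 196.9 against 377.3 and 543.4 against 485 CPM.

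Some genes of mineralising cartilage were lower as well. Of 12 hypertrophy and mineralisation genes, 3 were lower and none was higher. Col10a1, the collagen of hypertrophic chondrocytes, gave no UMI in the members, at least 3.43 and 22.8-fold below Col2a1-high barcodes. The library 1 interval reached down to 0.982, but it was computed with 3 counts in place of 0 and is not exact. Alpl, tissue-nonspecific alkaline phosphatase, was at least 9.43-fold lower in library 1 and 29.1-fold lower in library 2 (8.03 to 240.4). Ibsp, bone sialoprotein, was 2.17-fold lower in library 1 and at least 153-fold lower in library 2. The Ibsp call was lost without the member with most Chil1, and also with members limited to Col2a1 under 5 per 10000. Of 15 chaperone and secretory genes of cartilage, 3 were lower: the sulphate-donor synthase Papss2 (7.01 and 4.35-fold), Csgalnact1 and Xylt1, which build chondroitin sulphate chains. The growth factor receptor Fgfr3 and the ion channels Trpv4 and Piezo2 were also lower. Zfp385b, Smpd3, Col25a1, Rtl3, Stk26, Dhx58os and Cdkn1c completed the genes with the lowest ratios. Ctss and Lyz2, genes of myeloid cells, were in the same group, and the absence of Cd68 UMIs was a condition for the members only.

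After each barcode was reduced to 1500 UMIs, Lcn2 was found in 70.6% (52.5 to 84.9) and 83.3% (62.6 to 95.3) of members, against 58% and 23.2% of Col2a1-high barcodes and 17.3% and 24.1% of endothelial barcodes. Before this step the shares were 88.2% and 87.5% in members, 74.8% and 34.5% in Col2a1-high and 34.3% and 36.3% in endothelial barcodes. Mmp3 was found at equal depth in 47.1% and 75% of members, 29.4% and 31.5% of Col2a1-high and 15.1% and 26% of endothelial barcodes (58.8% and 87.5%, 43.4% and 42.6%, and 22.4% and 36.6% before). Sox9 went the other way, with 20.6% and 41.7% of members against 55.2% and 59.7% of Col2a1-high barcodes (70.6% and 79.2% against 79.7% and 73.9% before). The Lcn2 intervals of members and Col2a1-high barcodes overlapped in library 1 (49.5 to 66.2 in the latter) and did not in library 2 (21.0 to 25.6).

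Among deep barcodes only, 144 of 3654 genes were higher in the members (3.94%) and 151 lower (4.13%). Lcn2 was 2.43 and 13.3-fold higher, Slpi 3.44 and 20.3-fold, Cxcl1 3.54 and 10.7-fold, and Lum 2.80 and 3.05-fold. Hapln1 was 17.2 and 174.9-fold lower, and Sox9 2.94 and 3.39-fold. Complement genes were called more often there, with 6 of 9 higher, Clu, C3, C4b and Cfb among them. C3, the central complement protein, was at 868.5 against 361.3 and 987.6 against 115.7 CPM. In library 2, a single barcode per gene held 92.7% of the members' C4b UMIs and 77.3% of their Cfb UMIs. Without it, C4b was at 15.96 CPM and Cfb at 26.61 CPM in all members of library 2. Deep Col2a1-high barcodes there had 14.51 and 5.362 CPM, so C4b was then close to its reference level. The same 6 cartilage collagens were lower.

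A second reference met the Chil1, Acan, Cd68 and Csf3r conditions too and differed by rule in Col2a1 only, but it held 21 barcodes (6 and 15). Against it 186 of 3666 genes were higher (5.07%) and 178 lower (4.86%). The 6 highest were Ly6a, Fndc1, Mmp3, Cxcl1, Csmd1 and Sfrp2. Cxcl1 was 6.16-fold higher in library 1 (2.81 to 16.8) and 87.6-fold higher in library 2 on 2 UMIs in the reference (24.04 to 726.2). Mmp3 was 37.1-fold (10.3 to 306.6, on 2 reference UMIs) and 44.7-fold higher. The 6 lowest were Alpl, Ibsp, Il17b, Hapln1, Smpd3 and Pdzrn4, and the same 6 cartilage collagens were lower. Lcn2 was at 5029 against 1454 CPM (3.46-fold) and 5853 against 3943 CPM (1.48-fold) and was not called, so Chil1-bearing barcodes with high Col2a1 also carried Lcn2 in library 2. Complement genes were again higher, 7 of 9, and 6 of 20 NF-kappaB and cytokine-response genes were higher (Cxcl1, Csf1, Nfkbia, Relb, Vcam1 and Tnfaip2). Many of these rested on few reference UMIs in library 1, where the intervals of C1ra, C4b, Cfb, Serping1, Csf1, Relb and Tnfaip2 reached below 1, with lower bounds from 0.496 (Cfb) to 0.87 (Tnfaip2). C1ra had no reference UMI there, so its interval came from the 3 counts set in place of 0 and is not exact. C4b and Cfb in library 2 rested mostly on 1 member, as above.

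The deep members were next set beside deep barcodes with Acan, low Col2a1 and no Chil1 (450 and 497, median 18859 UMIs, against 22293 in the deep members). These needed only 1 Acan UMI, and their median Acan was 1.62 and 1.32 per 10000, against 4.56 and 2.36 in the deep members. Low-count barcodes had 70.22 and 258.3 CPM of Acan, so both medians of library 2 lay below that level. The part of free RNA in this comparison was not tested. Of 3631 genes, 55 were higher in the members (1.51%) and 142 lower (3.91%), and the median log2 ratio was 0. Slpi was at 158 against 27.22 CPM (5.81-fold, 4.61 to 7.27) and 1164 against 49.46 CPM (23.5-fold, 20.6 to 26.9). Lcn2 was at 4878 against 998.3 CPM (4.89-fold) and 6072 against 1021 CPM (5.95-fold). Mmp3 was 4.25 and 13.6-fold higher, and the collagenase Mmp13 5.59 and 13.2-fold, with 92.9% of the Mmp13 UMIs of library 1 in 1 member, without which Mmp13 was at 5.965 against 14.53 CPM there. The medians over barcodes showed the same for Lcn2, at 33.3 and 40.4 per 10000 in members and 0.708 and 0 in the Acan barcodes. Of the label genes, Mt2 was higher (2.75 and 3.69-fold), with most library 2 UMIs in 1 barcode, as above. Clu (ratios of 1.795 and 0.673) and Nos2 (8.05 and 0.0829, on 1 UMI in library 2) went opposite ways and were not called.

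Some cartilage genes were higher in the members than in these Acan barcodes. Of 8 cartilage collagens tested, 3 were higher (Col9a3, Col11a2 and Col27a1) and none was lower, and 4 of 11 proteoglycans and matrix proteins were higher (Matn4, Comp, Prg4 and Fmod). Prg4 (chr1:150449412-150466165, minus strand), lubricin, the boundary lubricant of joints, was at 1077 against 314.2 CPM (3.43-fold) and 3033 against 396.7 CPM (7.65-fold). Sox5 (2.07 and 2.79-fold) and Sox6 (2.48 and 3.96-fold), partners of Sox9, and Runx2 were higher. Sox9 was 2.31-fold higher in library 1 and 1.75-fold in library 2 and was not called. Wif1, a secreted Wnt inhibitor, was 3.29 and 7.93-fold higher. Several of these calls rested on 1 barcode. Without the member of each library that held most of a gene's UMIs, library 1 ratios were 1.20 for Comp, 1.75 for Col11a2, 1.71 for Sox5, 1.12 for Runx2 and 1.06 for Wif1, and the library 2 ratio was 1.26 for Col9a3, all below the limit. Slpi (3.95 and 10.7), Lcn2 (4.37 and 5.15), Mmp3, Matn4, Prg4 (2.84 and 6.31), Fmod, Col27a1 and Sox6 (2.20 and 3.34) stayed past 2-fold.

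Smooth muscle genes showed the opposite. Of 16 contraction genes tested, 14 were lower in the members than in the Acan barcodes and none was higher, with a list median of -2.39. This held for the Acan reference only. None of 15 contraction genes was called against deep Col2a1-high barcodes or the deep Prg4 barcodes described below, with list medians of 0.82 and 0.42. Acta2, smooth muscle actin, was at 1257 against 6991 CPM (5.56-fold lower, 5.20 to 5.95) and 244.2 against 9136 CPM (37.4-fold lower, 30.4 to 46.5). Myh11, smooth muscle myosin, was 3.43 and 37.8-fold lower, and the actin-binding Tagln 4.41 and 30.8-fold. The insulin-like growth factor binding proteins Igfbp2, Igfbp5, Igfbp6 and Igfbp7 and the matricellular Ccn3 were lower too.

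A last comparison used deep barcodes with Prg4 at 10 or more per 10000, low Col2a1 and no Chil1 (174 and 114, median 17936 UMIs). No Acan UMI was required of them, and 37 of 174 and 37 of 114 had one, while every member had Acan by the rule. Cartilage genes that go with Acan may differ through this choice of sets, which was not tested. Of 3666 genes, 45 were higher (1.23%) and 150 lower (4.09%). Slpi (4.21 and 5.15-fold) and Lcn2 (3.28 and 2.04-fold) were again higher, as were the collagens Col9a3, Col11a2 and Col27a1, the proteoglycan Fmod (5.58 and 3.24-fold), Sox6 (3.09 and 3.09-fold) and Runx2. Penk, the precursor of enkephalin peptides, was 3.39 and 3.65-fold higher. In library 1, the member with most Chil1 held 87.4% of the Penk UMIs of deep members, and without that member the ratio was 0.473. Without the highest member of each library, Lcn2 was 2.94 and 1.76-fold higher and no longer past the limit, while Slpi (2.86 and 2.33), Fmod, Sox6, Runx2 and the 3 collagens stayed past it. Mmp3 was 1.40 and 2.74-fold higher and was not called. Nor were the label genes Clu (ratios of 2.63 and 0.545), Nos2 (8.835 and 0.063, on 1 UMI in library 2) and Mt2 (1.21 and 1.67). Among the genes with the lowest ratios, Pi16, a secreted protein of fibroblasts, was at 20.3 against 1395 CPM and 5.427 against 631.9 CPM from 2 UMIs (68.7 and 116.4-fold), and Clec3b, Has1, Tnxb and Igfbp5 were lower as well.

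Complement genes and a few cytokine genes were lower against the Prg4 barcodes. Of 9 complement genes, 5 were lower, Serping1 and C4b among them, and none was higher, with a list median of -1.63. Serping1, the C1 inhibitor, was at 126.1 against 1844 and 86.83 against 950.5 CPM. Of 23 NF-kappaB and cytokine-response genes, 4 were lower (Il6, Ccl2, Ccl7 and Tnfaip6), none was higher, and the list median was -0.32. Il6 was 19.3 and 16.7-fold lower, and the monocyte-attracting chemokine Ccl2 was at 69.6 against 955.9 CPM (13.7-fold lower) and 78.69 against 583.3 CPM (7.41-fold lower). All these comparisons share the same members, so they are not independent of each other.

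**Figure D4:**
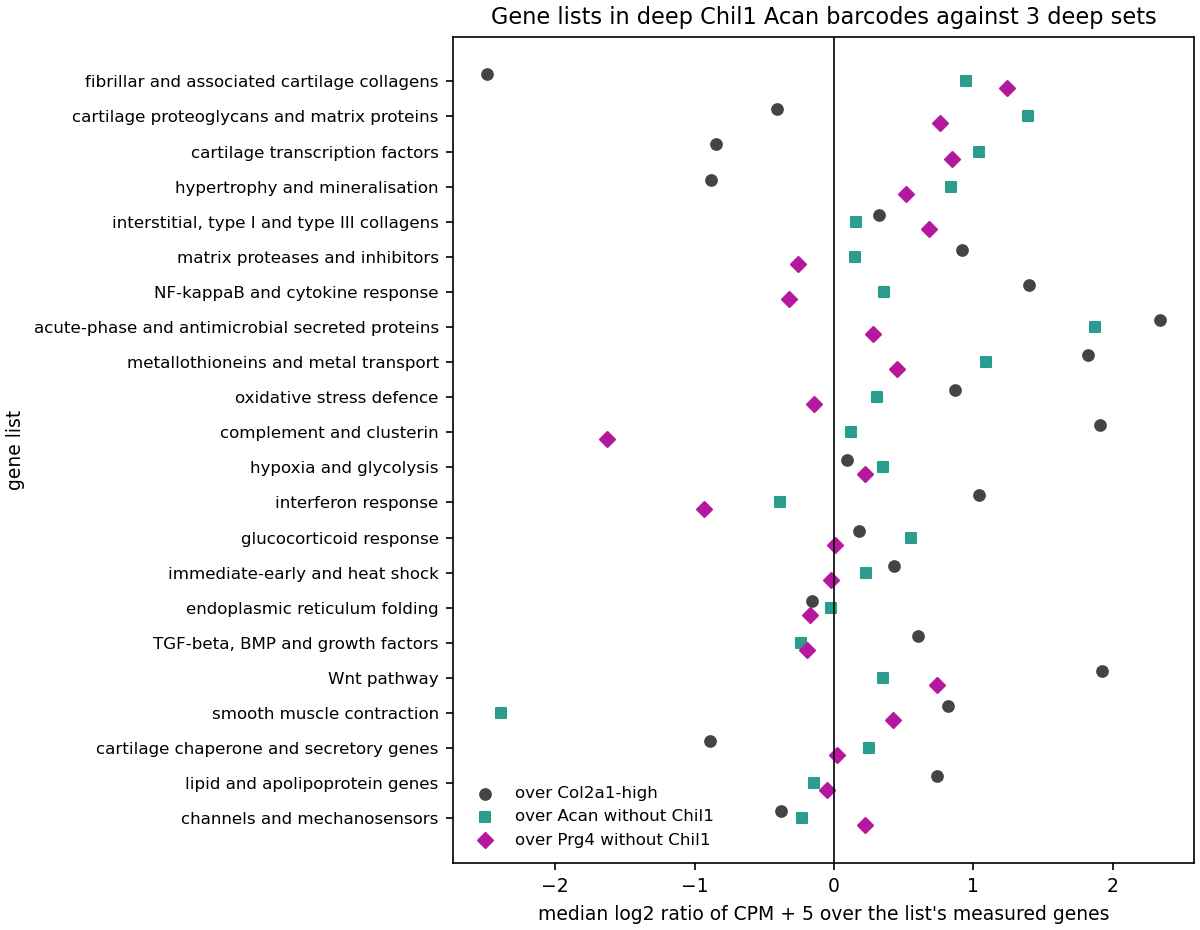
Median log2 ratio of each of 22 gene lists in deep members over 3 deep reference sets: Col2a1-high, Acan without Chil1 and Prg4 without Chil1. Cartilage collagens lie at -2.49, 0.95 and 1.24, and complement genes at 1.91, 0.12 and -1.63. Smooth muscle genes lie at 0.82, -2.39 and 0.42.

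Members of the 2 libraries also differed from each other. Of 3755 genes, 356 were 2-fold or more higher in library 2 (9.48%) and 170 lower (4.53%). The 6 genes with the highest ratios were Il1rn, Ankrd1, Iigp1, Slurp1, Ano2 and Selp, and the 6 lowest were Nos2, Ibsp, Col11a1, Hivep3, Gdf10 and Omd. Several of them rested on 1 barcode, which held 77.8% of Il1rn, 86.0% of Ankrd1, 98.1% of Iigp1 and 100% of Ano2 UMIs in library 2. Others were spread over members: Selp, the adhesion protein P-selectin, had UMIs in 13 of 24 against 6 of 34, and Gdf10, a growth factor of the BMP family, in 2 of 24 against 16 of 34. Prg4 and Penk UMIs occurred together in 16 of 24 members of library 2 and 6 of 34 of library 1. Lcn2 and Mmp3 were both at 20 or more per 10000 in 12 of 24 and 10 of 34. With neither library tied to a sample, and 1 library per sample, animal, treatment and library cannot be told apart.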

How the data were processed

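The series holds 2 samples of aortic cells, titled HFD and MSC_ITGB3, each measured once by 10x single-cell RNA sequencing. The authors deposited 1 unfiltered matrix of raw UMI counts per gene and barcode (32285 genes, 2828620 barcodes), and per the file headers the software was Cell Ranger 6.0.1. In addition, bcl2fastq, Seurat and mm10 appear in the submitters' processing notes, without versions. The libraries held 110257209 and 124266676 UMIs, of which 81.7% and 67.4% fell in kept barcodes with median depths of 3231 and 2438 UMIs. Samples were grouped by their titles, but barcode suffixes could not be mapped to them.

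Counts were summed per set and library and scaled to CPM with Python 3.11.15, numpy 2.4.6, pandas 2.3.3 and scipy 1.17.1, and figures were drawn with matplotlib 3.10.9. Because cells are not replicates, ratios carry exact counting intervals and no test. Genes were ranked by log2 ratio with 5 CPM added to both sides, and the rule's genes (Chil1, Acan, Col2a1, Cd68 and Csf3r) were left out of all counts. Code was tested on simulated counts. No doublet caller was run, so doublets remain possible. Gene positions come from GENCODE vM21 on GRCm38, in which 32158 of 32285 identifiers (99.61%) were found.

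Named genes are the 5 label genes, the 14 highest and 14 lowest called genes against Col2a1-high barcodes, the 6 highest and 6 lowest against the second reference and between libraries, and genes of 24 lists. Members and lists were chosen with earlier results of these data known. The deep limit, the Acan and Prg4 references without Chil1, the per-10000 limits used for counting members, the promoter genes and other genes named outside this rule were chosen after values were seen. Alternatives covered the filters, the member rule, scaling, depth, single libraries and leaving out single barcodes.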

Additional observations from a re-analysis of the deposited data

How the results depend on the processing

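Counts of called genes moved with the settings. Against Col2a1-high barcodes, 76 higher and 114 lower genes became 166 and 64 after thinning to 1500 UMIs, 140 and 201 at a minimum of 20 CPM, 246 and 368 without a minimum, 160 and 215 in library 1 alone, and 397 and 311 in library 2 alone, and the higher count was 144 at 8000 UMIs. Against the second reference, 186 and 178 became 51 and 50 after thinning, 643 and 708 in library 1 alone, and 741 and 411 in library 2 alone, and the lower count was 287 at a minimum of 20 CPM. The 58 members became 33 with 4 or more Chil1 UMIs, and 36 when barcodes with a UMI of Ptprc, S100a8, S100a9, Pecam1 or Cdh5 were left out. Under the last setting the log2 ratio of C4b reversed to -0.77.

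Lcn2, Slpi, Mme, Ereg, Fndc1, Fzd1, Lum, Cxcl1, Hapln1 and Col11a1 stayed past the 2-fold limit in 16 of 16 alternatives, Saa3 in 15, Clu in 13, Mmp3 in 9, Mt2 in 8 and Mt1 in 7. Lyz2 stayed past it in 11, Ibsp in 10, F5 in 9 and Ctss in 6. Of the gene values under alternatives, 413 moved by less than their counting interval, 278 moved by more and 1 reversed. The alternatives with 8000 UMIs and without single barcodes were added after the data were seen. The causes were not tested. No paired analysis was possible because no library is tied to a sample and each sample has 1 library. Depth limits genes with few UMIs, above all in the second reference of library 1 with 42629 UMIs.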

Other observations

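Some gene groups were spread unevenly among the members. Spp1, the secreted phosphoprotein osteopontin, had UMIs in 54 of 58 members and was at 26950 and 9680 CPM, with medians of 109 and 16.0 and highest values of 1260 and 416 per 10000. It was not called against Col2a1-high barcodes (14340 and 14490 CPM), since its ratio was 1.88 in library 1 and 0.668 in library 2. Timp1, an inhibitor of metalloproteinases, had UMIs in 55 of 58, at 1337 and 2176 CPM. Serpine2, a secreted protease inhibitor, was at 1786 CPM with UMIs in 29 of 34 members of library 1 and at 137.8 CPM with UMIs in 13 of 24 of library 2.

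The heat shock gene Hspa1a was at 1586 against 598.5 CPM and 1822 against 689.4 CPM in Col2a1-high barcodes, 2.65 and 2.64-fold higher. Of 16 immediate-early and heat shock genes tested, 2 were higher (Hspa1a and Hspa1b) and 1 was lower (Btg2). The secreted Wnt modulators Sfrp2 (5.22 and 2.86-fold) and Dkk3 (2.31 and 6.08-fold) were higher, 2 of 7 Wnt pathway genes tested. The water channel Aqp1 was at 63.79 against 21.41 and 186.2 against 53.63 CPM.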
